A study of Mus musculus with 18 samples.

Results

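Glycolysis and HIF-1 target genes were followed across mouse bone marrow-derived macrophages given water or either of a pair of bacterial cell wall fragments. The set was a list of 32 gene symbols, matched by name to the deposited gene table. It held 20 glycolytic genes (transporters, enzymes and the regulator Pfkfb3), 10 other hypoxia targets, and 2 regulators, Hif1a and Txnip. All 32 symbols were found among 56748 genes, in 33 rows, because Aldoa named 2 rows. The Aldoa row with 421494 counts was used and the row with 67 counts was not.

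The macrophages came from C57BL/6J mice, either wild type or TLR4 knockout, and were grown from bone marrow with medium conditioned by L929 cells. On day 7 they received water, GlcNAc-MurNAc (GM, a disaccharide of the peptidoglycan backbone) or MDP for 24 h in serum-free IMDM. The usual NOD2 ligand called MDP is MurNAc-L-Ala-D-isoGln, but in the sample labels the name stands for MurNAc-D-Ala-L-Gln. Doses, and the part of Tlr4 removed in the knockout, are not given in the sources used here. The 6 groups were wild type with water, wild type with GM, wild type with MDP, knockout with water, knockout with GM and knockout with MDP, with 3 libraries each. The labels call the libraries biological replicates without saying whether separate mice or cultures were used. The p-values thus speak only of variation among the libraries at hand, which may be technical.

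HIF-1 is a transcription factor made of an oxygen-sensitive alpha subunit, encoded by Hif1a, and a stable partner. In the presence of oxygen, the prolyl hydroxylases encoded by Egln genes mark the alpha subunit for capture by VHL and degradation, and several targets of HIF-1, Egln3 among them, feed back on this step. Activated macrophages are known to raise HIF-1 and glycolysis in response to Toll-like receptor ligands, and HIF-1 targets cover nearly every step from glucose uptake to lactate export, besides angiogenesis, mitophagy and collagen modification.

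Total counts ran from 15532973 to 21128507 per library. The variation between libraries within a group, as a biological coefficient of variation over all genes, was 35.5% for wild type with water and 27.6% for wild type with GM, against 5.69% to 8.11% in the other 4 groups. Tlr4 read 149 to 230 CPM in wild type with water and 46.3 to 52.9 CPM in knockout with water (log2 fold change -1.82, SE 0.19, adjusted p = 0.0035), so the knockout label matched a lower but not absent transcript. CPM here is the usual depth-scaled count, taken on the TMM-scaled library size. Summed CPM of 8 macrophage markers was 24400 to 32700 in every library.

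Wild type with water replicate 3 stood apart from replicates 1 and 2, and it did so in the HIF genes. Against the mean of replicates 1 and 2, the glycolytic genes had a median log2 difference of 0.75 and the other hypoxia targets of 0.83, while the median over all 15450 genes tested was -0.01. In that library 14 of 20 glycolytic genes and 8 of 10 other hypoxia targets lay above both other water libraries, as did 6755 of the 15450 genes tested. Egln3 read 1.31, 1.89 and 20.9 CPM in replicates 1, 2 and 3, and Vegfa read 21.5, 30.9 and 91.1 CPM. Replicates 1 and 2 were close to each other in both genes and replicate 3 was several times higher. Markers moved with it: the median of 13 stromal markers was 2.94 and 3.04 log2 above the genes' own means in replicates 1 and 2 and 1.26 in replicate 3. For 10 cell cycle markers the medians were -0.20, -0.43 and -2.07. Their part in the difference was not tested. The comparisons that use wild type with water are therefore given with and without this library where leaving it out changed the calls. It was singled out by high values of genes of this set, so leaving it out lowers the water levels of those genes. Their values and p-values without it thus follow in part from that choice and are no separate test.

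**Figure D1:**
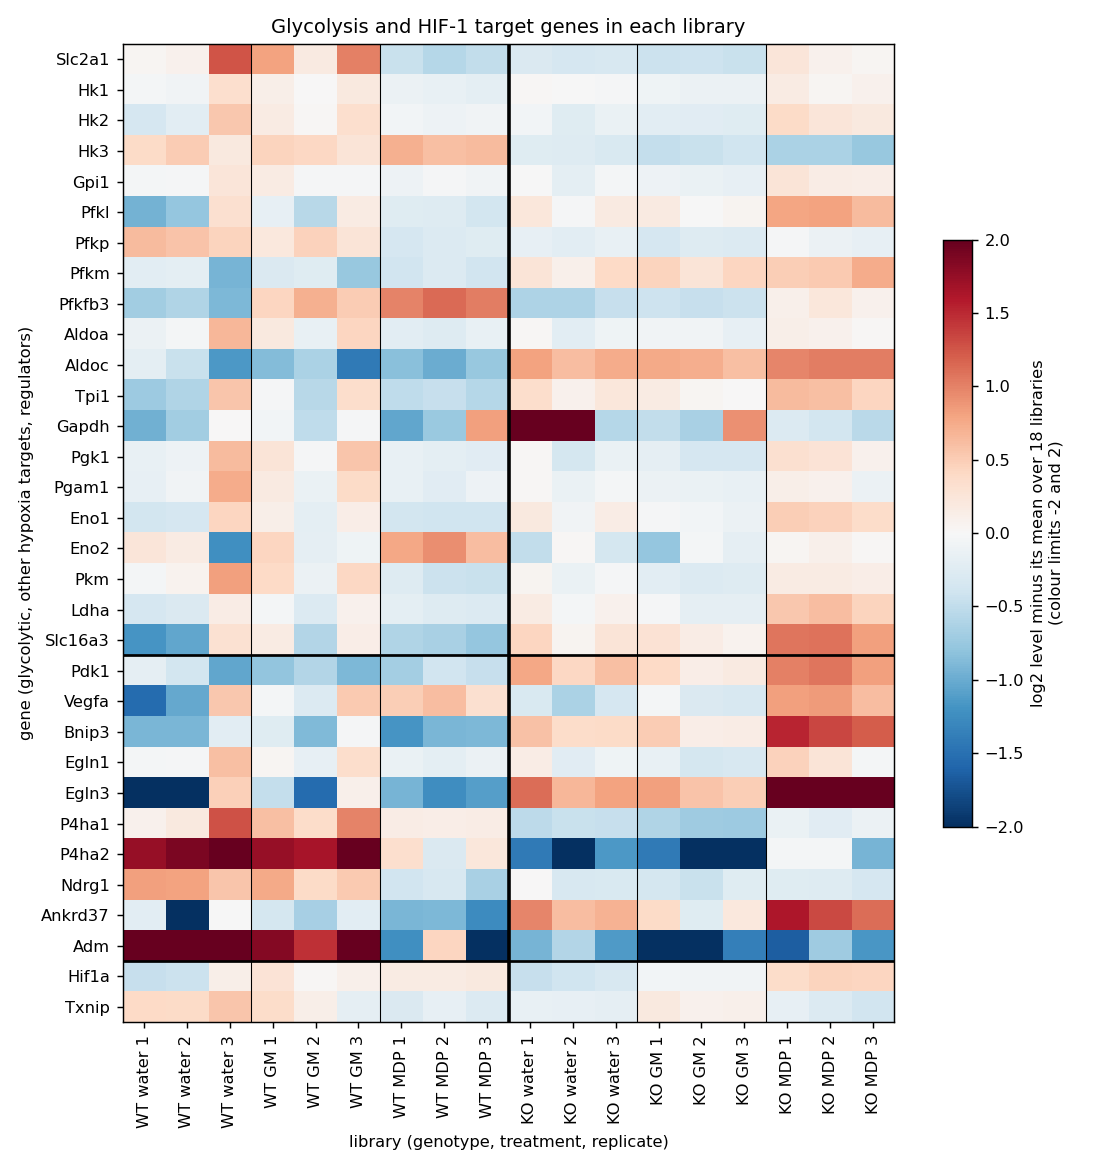
Heat map of the log2 level of each of the 32 genes (rows, by group) minus its mean over the 18 libraries, with 1 column for each library and colour limits at -2 and 2. The columns of wild type with water replicate 3 and of the 3 knockout libraries with MDP lie mostly above the gene means, and those of wild type with MDP mostly below.

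Promoter sequences were read for 31 of the 32 genes (all but Ndrg1) from RefSeq on the GRCm38.p6 build, as the 250 bases before each start site. The search was for ACGTG or GCGTG on either strand, which are the core letters of the hypoxia response element, with overlapping matches counted as 1. Of 45 windows for these genes, 36 (80%) held at least 1 match, against 12679 of 32851 windows of all genes (38.6%), without matching for base composition. At least 1 match lay in the windows of 17 of 20 glycolytic genes, 9 of 9 other hypoxia targets and both regulators. A match is a run of letters and not a measured binding site. The windows shown belong to 4 genes that rose in the knockout with MDP and to Hk3, the gene of the set that fell there, whose window also held a match. They were chosen after the values and the matches were seen and are not the 4 largest rises. Among other genes that rose there, the first of 2 Vegfa windows held 0 matches and the second 2, and the P4ha2 window held 3. Matches are in capitals, and the strand is that of the gene.
Bnip3, chr7:138909507-138909756, minus strand: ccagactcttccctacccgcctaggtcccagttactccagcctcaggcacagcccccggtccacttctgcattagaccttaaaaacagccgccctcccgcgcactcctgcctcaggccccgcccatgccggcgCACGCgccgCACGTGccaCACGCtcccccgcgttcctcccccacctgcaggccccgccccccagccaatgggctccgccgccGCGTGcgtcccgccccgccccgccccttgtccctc
Egln3, chr12:54203875-54204124, minus strand: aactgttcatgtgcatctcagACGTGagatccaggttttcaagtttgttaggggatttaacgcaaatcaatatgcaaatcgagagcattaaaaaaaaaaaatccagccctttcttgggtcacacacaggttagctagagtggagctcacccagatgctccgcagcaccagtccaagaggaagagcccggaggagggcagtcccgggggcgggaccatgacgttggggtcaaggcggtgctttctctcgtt
Slc16a3, chr11:120948817-120949066, plus strand: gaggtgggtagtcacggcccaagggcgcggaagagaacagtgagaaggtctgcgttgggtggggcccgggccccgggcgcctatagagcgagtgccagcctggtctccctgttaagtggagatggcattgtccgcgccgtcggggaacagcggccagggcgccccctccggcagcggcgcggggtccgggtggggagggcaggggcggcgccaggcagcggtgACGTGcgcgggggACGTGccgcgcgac
Ldha, chr7:46845554-46845803, plus strand: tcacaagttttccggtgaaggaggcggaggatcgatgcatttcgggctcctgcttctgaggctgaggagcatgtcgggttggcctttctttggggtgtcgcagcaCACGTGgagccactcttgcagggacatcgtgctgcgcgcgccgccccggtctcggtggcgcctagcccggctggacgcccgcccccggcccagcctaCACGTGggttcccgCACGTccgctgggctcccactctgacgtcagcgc
Hk3, chr13:55021386-55021635, minus strand: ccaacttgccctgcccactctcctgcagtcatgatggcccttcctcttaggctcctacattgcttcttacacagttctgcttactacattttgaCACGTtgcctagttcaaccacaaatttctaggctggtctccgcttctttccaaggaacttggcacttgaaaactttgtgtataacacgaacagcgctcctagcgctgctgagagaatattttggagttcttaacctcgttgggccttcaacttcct
The Bnip3 window held 4 matches, the first of 2 Ldha windows, which is the one shown, 3, the Slc16a3 window 2, and the Egln3 and Hk3 windows 1 each.

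The most abundant genes of the set on the length-adjusted FPKM scale were glycolytic. Other glycolytic genes were among the lowest, with mean FPKM of 2.5 for Pfkm and 0.9635 for Eno2, and Pfkp stood between at 10.55. Mean FPKM over the 18 libraries was 432.9 for Aldoa (aldolase), 366.7 for Pkm (pyruvate kinase), 258.8 for Pgam1 (phosphoglycerate mutase), 244.6 for Pgk1 (phosphoglycerate kinase) and 217.7 for Ldha, which reduces pyruvate to lactate. Among the other hypoxia targets the highest was P4ha1 with 37.84 FPKM and the lowest Adm with 0.6934 FPKM. The regulators Txnip and Hif1a stood at 84.78 and 39.75 FPKM. Gapdh was listed at only 6.685 FPKM, with 9684 counts over all libraries and values of 105, 129 and 13.0 CPM within knockout with water. Gapdh has many near-identical copies in the genome, and how shared reads were counted is not given in the sources used here, so its row is uncertain. It was called in 0 comparisons but stays in the counts and medians of the glycolytic genes, and it is 1 of the 14 that were highest in water replicate 3. Without it the glycolytic median for MDP in the knockout was 0.34 in place of 0.33 log2. Eno1 and Ldha also have close copies and carry the same limit.

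Paralogs shared each step unevenly, and the shares differed by group. Hexokinase messages, which start glycolysis by phosphorylating glucose, were mostly Hk3, the myeloid isoform. Hk3 made up 82.6% ± 0.344 (SD, n = 3) of hexokinase FPKM in wild type with MDP and 60.6% ± 1.12 in knockout with MDP, and 71.1% ± 0.738 in knockout with water. Hk2, the inducible isoform, went from 15.1% ± 0.778 in knockout with water to 22.8% ± 0.672 in knockout with MDP. Among the phosphofructokinases, Pfkl, the liver-type subunit, held 42.8% ± 13.6 in wild type with water and 68.6% ± 1.58 in knockout with MDP, and Pfkp, the platelet-type subunit, 51.0% ± 11.2 and 22.8% ± 0.771. Between the oxygen-sensing hydroxylases, Egln3 made up 10.5% ± 11.9 of the pair in wild type with water, 39.8% ± 0.774 in knockout with water and 57.8% ± 1.16 in knockout with MDP. The wild-type shares of Egln3 with water were 3.04%, 4.24% and 24.2%, and those of Pfkl 33.2%, 36.8% and 58.4%, with replicate 3 far above the others in both.

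In knockout macrophages, MDP raised most of the set. Of 31 genes tested (Adm was too low), 21 were higher and 1, Hk3, was lower than with water by edgeR's quasi-likelihood test at adjusted p under 0.05. Over all 14158 genes tested, 20.9% were called in either direction, 10.4% higher and 10.5% lower. Higher calls went to 13 of 20 glycolytic genes, with Hk3 lower, and to 7 of 9 other hypoxia targets tested. The median log2 change was 0.33 for the glycolytic genes and 0.61 for the other hypoxia targets, beside 0 for all genes. In 24 of the 31 genes every MDP library lay above every water library, which held for 16.1% of all genes (34.5% were without overlap in either direction).

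Hif1a (GRCm39 chr12:73948149-73994304, plus strand) read 168, 174 and 184 CPM with water and 298, 317 and 310 CPM with MDP in the knockout. The groups did not overlap, and the rise was 0.82 log2 (SE 0.05, adjusted p = 1.5e-15). Among the targets outside glycolysis, the largest rise was in Egln3 (GRCm39 chr12:54225767-54250646, minus strand), the hypoxia-induced prolyl hydroxylase. Egln3 read 32.8, 23.9 and 26.3 CPM with water and 77.5, 71.1 and 60.1 CPM with MDP (log2 fold change 1.34, SE 0.14, adjusted p = 0.00021). Each MDP library was well above each water library.

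Vegfa, the angiogenic growth factor (GRCm39 chr17:46327919-46343295, minus strand), went from 50.5, 40.6 and 49.6 CPM to 111, 114 and 96.6 CPM in the knockout, a rise of 1.20 log2 (SE 0.08, adjusted p = 1.1e-08). Bnip3, a receptor for the removal of mitochondria (GRCm39 chr7:138492565-138511248, minus strand), went from 72.0, 61.4 and 62.2 CPM to 137, 120 and 111 CPM, a rise of 0.92 log2 (SE 0.08, adjusted p = 2.8e-07). P4ha2, a collagen prolyl 4-hydroxylase subunit, went from 1.38, 0.827 and 1.68 CPM to 3.73, 3.75 and 1.97 CPM, a rise of 1.32 log2 (SE 0.30, adjusted p = 0.0011). All 3 genes had groups without overlap, although P4ha2 rested on 18 to 74 reads per library. Pdk1, a pyruvate dehydrogenase kinase gene, rose by 0.38 log2 and Ankrd37 by 0.61 log2. P4ha1, the more abundant paralog of P4ha2, rose by 0.33 log2.

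Within glycolysis the largest rises were in Slc16a3, Pfkfb3 and Pfkl. Slc16a3 (GRCm39 chr11:120839306-120851694, plus strand), the lactate exporter MCT4, read 184, 142 and 163 CPM with water and 285, 288 and 241 CPM with MDP in the knockout (log2 fold change 0.75, SE 0.12, adjusted p = 0.009). Pfkfb3 (GRCm39 chr2:11476244-11558888, minus strand), which makes the activator of phosphofructokinase, read 96.8, 96.9 and 109 CPM with water and 160, 176 and 159 CPM with MDP (log2 fold change 0.72, SE 0.05, adjusted p = 1.3e-12). In both genes the lowest MDP library was above the highest water library. Pfkl rose by 0.62 log2, Ldha by 0.47, the glucose transporter Slc2a1 by 0.45 and Hk2 by 0.42. The other called enzymes of the pathway rose by 0.17 (Aldoa) to 0.35 (Eno1 and Pfkm). Pgk1 had a value of 0.38 log2 without passing the test (adjusted p = 0.076), and neither did Hk1, Pfkp, Pgam1, Eno2 or the uncertain Gapdh row. The Pfkm call was lost with DESeq2 (adjusted p = 0.086), without the filter on low counts (0.061) and without MDP replicate 2 or 3 or water replicate 1 or 2. Leaving out water replicate 2 ended the calls for Aldoa (adjusted p = 0.15) and Pkm (0.052), and leaving out MDP replicate 1 ended that for Slc16a3 (0.053). With limma-voom Aldoa (0.13), Pkm (0.1) and Tpi1 (0.065) were not called.

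Hk3 went the other way, from 271, 267 and 260 CPM with water to 207, 206 and 190 CPM with MDP in the knockout, and its groups did not overlap. It fell by 0.40 log2 (SE 0.05, adjusted p = 3.6e-08), beside the rise of Hk2. Txnip, an inhibitor of glucose uptake, read 237, 233 and 231 CPM with water and 233, 217 and 200 CPM with MDP, which overlapped and did not pass the test (adjusted p = 0.17). All 10 cell cycle markers were lower with MDP in the knockout, at a median of -0.68 log2, and 2 stromal markers were higher and 1 lower of 9 tested. Summed stromal CPM went from 231 to 245 with water to 363 to 390 with MDP. Of 7 neutrophil markers tested 1 was higher and 0 lower, and their summed CPM went from 79.6, 147 and 112 to 163, 255 and 241. The part of these markers in the changes was not tested. In bulk RNA, fewer cells of a type and less RNA per cell cannot be told apart. When all 18 libraries were fitted together, so that the wider spread of the wild-type groups was shared, 4 of the 22 genes were still called: Hk3, Pfkfb3, Bnip3 and Hif1a.

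**Figure D2:**
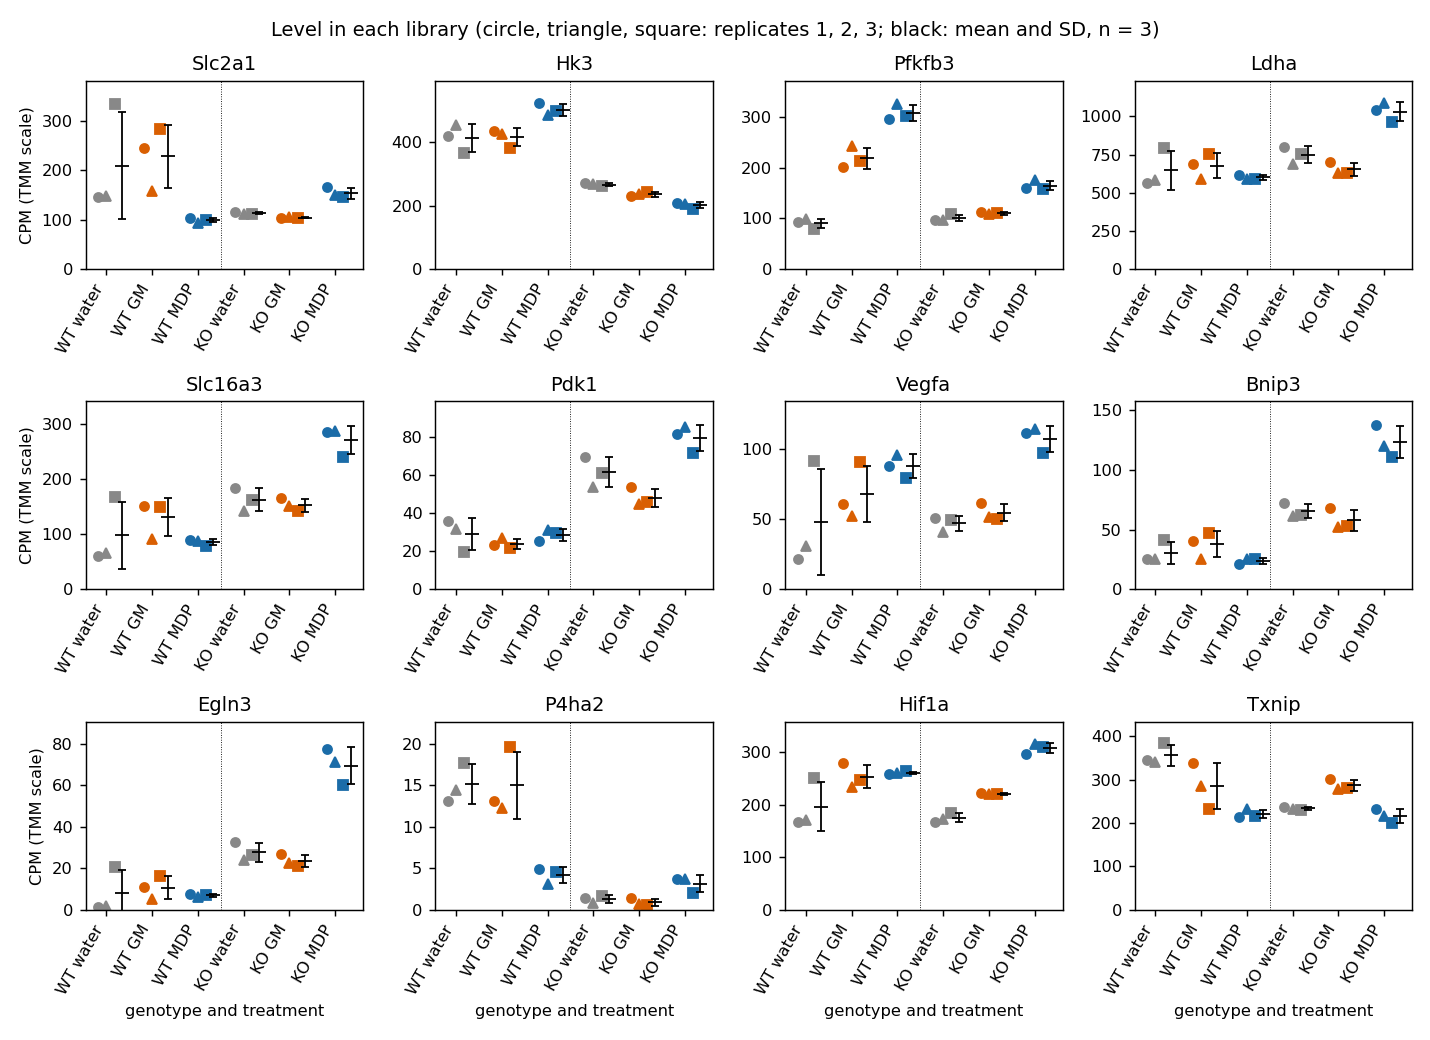
CPM on the TMM scale of 12 genes in each library, by genotype and treatment, with the axis from 0 and black marks for the mean and SD of 3 libraries (the lower arm for Egln3 in wild type with water runs below 0). Wild type with water replicate 3 (square) sits far above replicates 1 and 2 in Slc2a1, Slc16a3, Vegfa and Egln3, and Pfkfb3 rises in both genotypes with MDP.

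GM in the knockout raised both regulators, Hif1a and Txnip, and lowered Ankrd37, Pkm, P4ha1, Ldha and Hk3. Of the 31 genes tested, 2 were higher and 5 lower than with water, where 8.61% of 14139 genes were called, 4.15% higher and 4.46% lower, and 24.5% had groups without overlap. Both regulators rose: Hif1a read 223, 220 and 221 CPM with GM (log2 fold change 0.34, SE 0.04, adjusted p = 5.8e-07), and Txnip read 301, 278 and 282 CPM (log2 fold change 0.30, SE 0.04, adjusted p = 3.2e-06). For both genes the lowest GM library was above the highest water library. No glycolytic gene and no other hypoxia target was called higher with GM in the knockout.

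The genes that fell with GM in the knockout had log2 fold changes of -0.64 to -0.18. Ankrd37, an ankyrin repeat gene induced by HIF-1, read 6.80, 5.24 and 5.59 CPM with water and 4.45, 2.85 and 3.94 CPM with GM (log2 fold change -0.64, SE 0.18, adjusted p = 0.023). Pkm read 1880, 1640 and 1770 CPM with water and 1560, 1490 and 1500 CPM with GM (log2 fold change -0.21, SE 0.04, adjusted p = 0.00099). The groups were separate in both. P4ha1 read 101, 106 and 105 CPM against 95.5, 88.2 and 87.3 CPM (log2 fold change -0.20, SE 0.05, adjusted p = 0.005), and Ldha read 800, 691 and 755 CPM against 701, 627 and 627 CPM (log2 fold change -0.20, SE 0.05, adjusted p = 0.024). Ldha libraries overlapped between the groups, those of P4ha1 did not. Hk3 fell by 0.18 log2. Without GM replicate 2 or 3 or water replicate 1 or 3, the calls for Ldha and Ankrd37 were lost at adjusted p of 0.055 to 0.15, and without GM replicate 3 that for P4ha1 (0.054). With limma-voom the calls for Pkm (0.11), Ldha (0.077) and P4ha1 (0.22) were lost. Median changes were -0.10 for the glycolytic genes and -0.22 for the other hypoxia targets, and 8 of 10 cell cycle markers were lower (median -0.35 log2). Of 7 neutrophil markers tested 0 passed the test, while their summed CPM went from 79.6 to 147 with water to 225 to 286 with GM. The part of these markers was not tested. In edgeR's fit of all 18 libraries 0 of these 7 genes were called, with 5 members at an unadjusted p under 0.05, while DESeq2 on the compared libraries called 8.

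In wild-type macrophages, the response to GM passed the test in Pfkfb3 and in no other gene of the set, where 0.65% of 14297 genes were called, all of them higher and 0 lower, and 12.1% had groups without overlap. Pfkfb3 read 92.4, 98.2 and 80.1 CPM with water and 202, 243 and 213 CPM with GM, and the groups were far apart. Its rise was 1.28 log2, or 2.43-fold (SE 0.13, adjusted p = 0.021). Leaving out any of the 3 GM libraries or of the first 2 water libraries ended this call at adjusted p of 0.075 to 0.15, with log2 fold changes of 1.21 to 1.37. No other hypoxia target had an unadjusted p under 0.05 (0 of 10, by edgeR), and the median changes were 0.07 for the glycolytic genes and 0.02 for the other hypoxia targets.

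The regulators did not pass the test with GM in wild type. Hif1a read 167, 171 and 252 CPM with water and 279, 235 and 248 CPM with GM (log2 fold change 0.37, adjusted p = 0.93), and Txnip 345, 341 and 385 CPM against 338, 285 and 232 CPM (log2 fold change -0.33, adjusted p = 0.91). Hif1a libraries overlapped through water replicate 3, and every Txnip library with GM was below every one with water. Without water replicate 3, Egln3 had a value of 2.75 log2 (adjusted p = 0.09), Vegfa 1.38 (adjusted p = 0.097), Slc16a3 1.06 (adjusted p = 0.12) and Hif1a 0.59 (adjusted p = 0.078), and Pfkfb3 was still the 1 gene called. The wild-type GM libraries were split as well. Egln3 read 10.8, 5.1 and 16.2 CPM in them, and the cell cycle medians were -1.72, -0.69 and -2.57, beside -2.07 in water replicate 3. GM replicates 1 and 3, which lay nearer that library in both, stayed in. The values without water replicate 3 thus follow in part from the choice of library.

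MDP in wild type also raised Pfkfb3, and it lowered 5 genes, 3 of them hypoxia targets outside glycolysis. The test called 1 gene higher and 5 lower of 32, where 9.14% of 14263 genes were called, 5.13% higher and 4.02% lower, and 38.5% had groups without overlap. Pfkfb3 read 297, 326 and 303 CPM with MDP (log2 fold change 1.78, or 3.43-fold, SE 0.11, adjusted p = 0.0017). It was called under every alternative fit and with each library left out in turn. It was the largest called increase of a glycolytic gene in the 4 comparisons of a ligand with water.

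The other hypoxia targets among the lower genes were P4ha2, Ndrg1 and Adm. P4ha2 read 13.1, 14.4 and 17.7 CPM with water and 4.87, 3.12 and 4.53 CPM with MDP in wild type (log2 fold change -1.85, SE 0.23, adjusted p = 0.0072). Ndrg1, a stress-induced regulator of differentiation (GRCm39 chr15:66801167-66841489, minus strand), read 108, 108 and 90 CPM and then 47.0, 49.5 and 39.5 CPM (log2 fold change -1.17, SE 0.13, adjusted p = 0.0054). Adm, the vasodilator peptide adrenomedullin, went from 47, 55 and 101 reads to 2, 11 and 0 reads (log2 fold change -3.93, SE 0.85, adjusted p = 0.038). The groups were separate in all 3. Adm passed the filter here through the water libraries, so its fold change rests on an MDP level near the floor. Pfkp read 214, 205 and 190 CPM with water and 110, 115 and 117 CPM with MDP (log2 fold change -0.83, SE 0.09, adjusted p = 0.005). Txnip read 214, 233 and 216 CPM with MDP (log2 fold change -0.69, SE 0.10, adjusted p = 0.0098). Both were below their water libraries throughout.

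Stromal markers fell beside them, with 8 of 13 lower and 1 higher with MDP in wild type (median -3.01 log2), and summed stromal CPM went from 131 to 383 with water down to 92.3 to 116 with MDP. Their part in the fall of P4ha2, Adm and the other genes was not tested. The calls for Adm were lost without any of 5 of the 6 libraries, at adjusted p of 0.059 to 0.17. Txnip lost its call without any of the MDP libraries, at 0.064 to 0.077, Pfkp without MDP replicate 1 or 2 (0.052 and 0.056) and P4ha2 without MDP replicate 3 (0.052).

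Without water replicate 3, the wild-type response to MDP took in 18 genes of the set, 10 higher and 8 lower, where 37.6% of genes were called. Egln3 then stood 2.15 log2 above water (adjusted p = 2e-06), Vegfa 1.75 (adjusted p = 0.00017), Hif1a 0.63 (adjusted p = 4.5e-08), Pfkl 0.58 and Slc16a3 0.44. With the library in, the corresponding values were -0.19, 0.87, 0.41, 0.07 and -0.20 log2 and none of them passed the test. Each of these genes was higher in that library than in water replicates 1 and 2, so the larger values follow in part from leaving it out. Hif1a itself read 259, 260 and 264 CPM with MDP, above all 3 water libraries. Slc2a1 was lower without the library (-0.56 log2, adjusted p = 6.8e-07), with 103, 93.9 and 99.8 CPM under MDP and 145 and 148 CPM in water replicates 1 and 2.

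**Figure D3:**
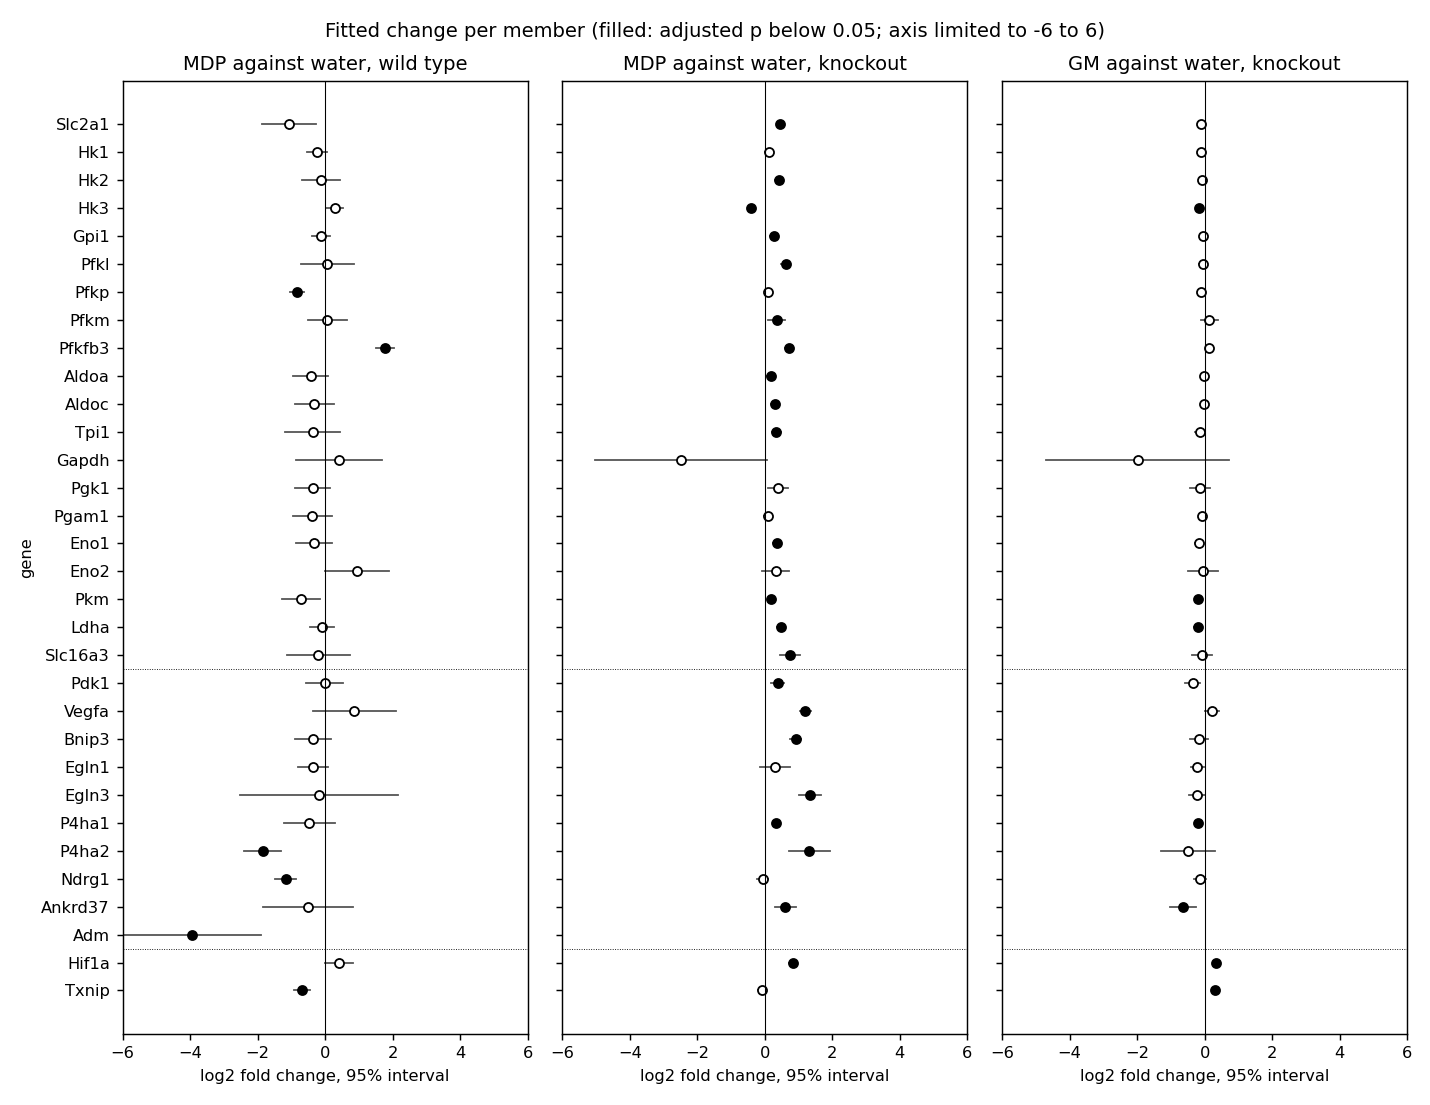
Log2 fold changes with 95% intervals of every tested gene for MDP against water in wild type, MDP against water in knockout and GM against water in knockout, with genes by group along the vertical axis. In the knockout with MDP 21 intervals of called genes lie above 0 and are narrow, whereas the wild-type intervals are wide for genes that differ in water replicate 3. The interval of Adm in wild type, -5.97 to -1.9, ends just inside the axis.

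The genotypes were set against each other by an interaction, the wild-type response minus the knockout response. For GM, 1 gene of 32 was called, where 0.953% of 15117 genes were called, 0.939% higher and 0.0132% lower. It was Pfkfb3, whose response was 1.15 log2 greater in wild type (SE 0.14, adjusted p = 0.0019). In the knockout Pfkfb3 read 112, 108 and 111 CPM with GM, against 96.8, 96.9 and 109 CPM with water. This difference was called under every alternative and with each library left out, at log2 values of 1.04 to 1.22. Without wild type with water replicate 3, 3 genes were called, where 3.33% of genes were called, and Egln3 was among them with 2.96 log2 (adjusted p = 0.021). Wild-type GM replicates 1 and 3, in which Egln3 was also high, stayed in, so this value follows in part from the library left out.

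For MDP, 8 genes of 32 were called, where 8.24% of 15013 genes were called, 4.79% higher and 3.45% lower. Pfkfb3 rose more in wild type by 1.06 log2 (SE 0.13, adjusted p = 0.00067), and Hk3 was 0.68 log2 higher in its response (adjusted p = 0.0044). In wild type Hk3 read 419, 454 and 367 CPM with water and 522, 485 and 497 CPM with MDP, which overlapped nowhere but did not pass the test, beside its fall in the knockout. The other 6 had lower responses in wild type: P4ha2 by -3.16 log2 (adjusted p = 0.0012), Slc2a1 by -1.52 (adjusted p = 0.027), Bnip3 by -1.27 (adjusted p = 0.01), Ndrg1 by -1.09 (adjusted p = 0.0023), Pfkp by -0.91 (adjusted p = 0.00037) and Txnip by -0.59 (adjusted p = 0.0073). Bnip3 read 25.3, 25.3 and 41.3 CPM with water and 21.0, 25.2 and 25.5 CPM with MDP in wild type. The Slc2a1 call was lost when any of the 3 wild-type MDP libraries or the 6 knockout libraries was left out (adjusted p 0.059 to 0.072), and without the filter on low counts (0.086). Without water replicate 3 in wild type, 19 genes were called, 3 higher and 16 lower, where 26.3% of genes were called (14.1% higher and 12.2% lower), and Egln3 went from -1.52 (adjusted p = 0.38) to 0.82 log2 (adjusted p = 0.041). Egln3 was high in the library left out, so its second value follows in part from that choice.

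GM and MDP were also compared directly, with the limit that their doses are unknown. The structures differ in that GM carries GlcNAc joined to MurNAc and no peptide, while MDP as labelled carries a dipeptide on MurNAc. In wild type 5 genes were called, where 10.7% of 14216 genes were called, 5.54% higher and 5.17% lower with GM, and 37.9% had groups without overlap. Slc2a1, the glucose transporter GLUT1 (GRCm39 chr4:118965908-118995180, plus strand), read 244, 158 and 283 CPM with GM and 103, 93.9 and 99.8 CPM with MDP (log2 fold change 1.19, SE 0.21, adjusted p = 0.017). P4ha2 was 1.83 log2 higher with GM (13.1, 12.2 and 19.6 CPM), Ndrg1 0.99 higher (104, 80.5 and 88.3 CPM) and Pfkp 0.58 higher (160, 191 and 166 CPM). Pfkfb3 was 0.51 log2 lower with GM than with MDP (adjusted p = 0.023). In each of the 5 the groups did not overlap. Stromal markers were higher with GM in 7 of 13 (median 1.71 log2), with summed CPM of 153 to 213 against 92.3 to 116, and 4 of 10 cell cycle markers were lower (median -1.65 log2). Their part was not tested. The calls for Slc2a1, Pfkp and Pfkfb3 were lost without any of the MDP libraries, those for Slc2a1 and Pfkfb3 also without GM replicate 1, and that for P4ha2 without MDP replicate 2 or 3 (adjusted p 0.053 to 0.12). Without GM replicate 2 the count rose to 21 genes, 19 higher and 2 lower, where 31.1% of genes were called. That library had the lowest glycolytic median of the GM libraries, at -0.14 log2 against 0.17 and 0.23. The larger count thus follows in part from leaving it out and is no separate test.

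In the knockout the same comparison called 27 of 31 genes, 25 lower with GM and 2 higher, where 17.7% of 14195 genes were called, 9.33% lower and 8.38% higher, and 33% had groups without overlap. Medians were -0.39 log2 for the glycolytic genes and -0.99 for the other hypoxia targets. The largest differences were -1.82 for P4ha2 (95% interval -2.48 to -1.16), -1.58 for Egln3 (-1.81 to -1.35), -1.26 for Ankrd37 (-1.61 to -0.90), -1.09 for Bnip3 (-1.45 to -0.74), -0.99 for Vegfa (-1.15 to -0.82) and -0.83 for Slc16a3 (-0.99 to -0.67). Egln3 read 26.8, 22.4 and 21.1 CPM with GM, Bnip3 67.8, 52.4 and 53.2, Vegfa 61.2, 51.3 and 50.3, and Slc16a3 166, 151 and 143, all below the MDP libraries. Hk3 (0.22 log2) and Txnip (0.40 log2) were the 2 higher genes. Gapdh, Pfkm, Eno2 and Ndrg1 did not pass the test. Leaving out 1 library ended the calls for Pgam1 (GM replicate 3 or MDP replicate 1 or 2) and Egln1 (GM replicate 2 or 3 or MDP replicate 2), at adjusted p of 0.05 to 0.17, and with limma-voom Pgam1 (0.16) and Aldoa (0.11) were not called. In the fit of all 18 libraries 5 stayed called, namely Pfkfb3, Ldha, Pdk1, Bnip3 and P4ha2.

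Without any ligand, the genotypes already differed in part of the set. With water, 9 of 32 genes were called, 3 higher and 6 lower in the knockout, where 15.8% of 14294 genes were called, 6.98% higher and 8.8% lower, and 45.9% had groups without overlap. Aldoc, an aldolase of the brain type (GRCm39 chr11:78213794-78218607, plus strand), read 112, 98.1 and 107 CPM in the knockout and 56.2, 47.2 and 28.8 CPM in wild type (log2 fold change 1.27, SE 0.24, adjusted p = 0.019). Pdk1 read 69.4, 53.8 and 61.2 CPM against 35.6, 31.4 and 19.6 CPM (log2 fold change 1.09, SE 0.23, adjusted p = 0.027), and Bnip3 was 1.09 log2 higher (adjusted p = 0.021). The knockout libraries were above every wild-type library in these 3 genes.

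The lower genes in the knockout with water were P4ha2, Adm, Ndrg1, Pfkp, Hk3 and Txnip. P4ha2 was lower by -3.55 log2 (SE 0.29, adjusted p = 0.0018), and Adm had 3, 5 and 2 reads against 47, 55 and 101 (log2 fold change -4.37, SE 0.49, adjusted p = 0.0044). Adm passed the filter here through the wild-type libraries, so its fold change rests on a knockout level near the floor. Ndrg1 read 62.0, 49.2 and 49.7 CPM in the knockout (log2 fold change -0.93, SE 0.13, adjusted p = 0.0088). Pfkp, Hk3 and Txnip were at -0.73, -0.63 and -0.61 log2. By single genes, stromal markers were lower too, 10 of 13 of them, at a median of -4.61 log2, and 7 of 10 cell cycle markers were higher. Summed stromal CPM was 231 to 245 in the knockout, within the 131 to 383 of wild type. The part of these markers was not tested. Without wild-type replicate 3 the count was 21, with 13 higher and 8 lower, where 49.3% of genes were called, and Egln3 stood 4.13 log2 higher in the knockout (adjusted p = 2.5e-18) against 1.79 with it (adjusted p = 0.25). Egln3 was high in that replicate, so the value of 4.13 follows in part from leaving it out. The calls for Hk3, Aldoc, Pdk1, Bnip3 and Txnip were lost without any of the knockout libraries, at adjusted p of 0.065 to 0.12, and that for Ndrg1 without knockout replicate 2 or 3 (0.061 and 0.062). Without wild-type replicate 2, Aldoc, Pdk1 and Bnip3 also missed the threshold (0.059 to 0.07), as did Bnip3 without wild-type replicate 1 (0.056).

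Under GM, 13 genes differed between the genotypes, 3 higher and 10 lower in the knockout, where 32.4% of 14377 genes were called, 14.8% higher and 17.6% lower, and 52.2% had groups without overlap. Aldoc (109, 106 and 97.9 against 35.2, 41.5 and 24.0 CPM) was 1.66 log2 higher, Pdk1 (53.5, 44.6 and 45.6 against 23.4, 26.8 and 21.6 CPM) 1.02 higher and Pfkm, the muscle-type phosphofructokinase, 0.82 higher. P4ha2 was lower by -4.03 log2 and Adm had 0, 0 and 2 reads against 31, 24 and 73 (adjusted p = 0.005). As with water, Adm passed the filter only through the wild-type libraries and was near the floor in the knockout. P4ha1 read 95.5, 88.2 and 87.3 CPM against 221, 187 and 289 CPM, a difference of -1.34 log2 (SE 0.16, adjusted p = 0.0018). Slc2a1 read 104, 105 and 103 CPM against 244, 158 and 283 CPM, a difference of -1.11 log2 (SE 0.20, adjusted p = 0.0076), and Pfkfb3 was lower by -0.97 log2 (SE 0.09, adjusted p = 0.00077). All of these groups were separate. Summed stromal CPM was higher in the knockout, at 220 to 247 against 153 to 213. By single genes, 10 of 13 stromal markers were lower there and 1 higher (median -3.71 log2). All 10 cell cycle markers (median 2.25 log2) and 6 of 7 neutrophil markers were higher. The part of these markers was not tested. Without wild-type GM replicate 2, 21 genes were called, 5 higher and 16 lower, where 44.4% of genes were called. Medians of the glycolytic genes and of the other hypoxia targets were lowest in that library among the wild-type GM ones. The larger count thus follows in part from leaving it out. The calls for Hk2 and Pgk1 were lost without any of the knockout libraries or wild-type GM replicate 1, and that for Pfkm without knockout replicate 1 or 3, at adjusted p of 0.061 to 0.12.

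Under MDP most of the set was higher in the knockout. Of 31 genes tested, 23 were higher and 4 lower, where 46.9% of 14304 genes were called, 23.7% higher and 23.3% lower, and 54.9% had groups without overlap. The glycolytic genes had 16 higher and 3 lower, with a median of 0.41 log2, and the other hypoxia targets 6 higher and 1 lower of 9, with a median of 0.42. Egln3 read 7.83, 6.30 and 6.99 CPM in wild type with MDP and 60.1 to 77.5 CPM in the knockout (log2 fold change 3.33, or 10.1-fold, SE 0.11, adjusted p = 2.2e-17). Ankrd37 read 1.75, 1.77 and 1.36 CPM against 10.6, 8.66 and 7.48 CPM in the knockout (log2 fold change 2.47, SE 0.21, adjusted p = 4.2e-10). Bnip3 was 2.39 log2 higher, or 5.23-fold (SE 0.08, adjusted p = 9.3e-15). All 3 were far apart between the genotypes.

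Aldoc, Slc16a3 and Pdk1 followed under MDP. Aldoc read 35.9, 32.2 and 37.8 CPM in wild type and 127, 131 and 131 CPM in the knockout (log2 fold change 1.90, SE 0.07). Slc16a3 read 90, 87.1 and 79.4 CPM in wild type against 285, 288 and 241 CPM (log2 fold change 1.69, SE 0.07), and Pdk1 25.2, 31.1 and 29.4 CPM against 81.4, 84.9 and 71.7 CPM (log2 fold change 1.5, SE 0.08). The lower genes were Hk3 (-1.29 log2), Pfkfb3 (-0.88), Eno2 (-0.71) and P4ha1 (-0.28). Hif1a message was 0.26 log2 higher in the knockout (SE 0.05, adjusted p = 0.00015), and Txnip was level with wild type (0.00 log2, 95% interval -0.12 to 0.12). In the fit of all 18 libraries 15 genes were called.

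Across treatments, 7 genes separated all 9 knockout from all 9 wild-type libraries, where 12.7% of 15450 genes did. Pfkm, Aldoc, Pdk1, Bnip3 and Egln3 were above in the knockout, as were 6.2% of all genes, and Hk3 and P4ha1 below, as were 6.52%. The margin was narrow for Egln3, with 21.1 CPM in the lowest knockout library and 20.9 CPM in the highest wild-type one, which was water replicate 3. It was wide for Aldoc (97.9 against 56.2 CPM) and Hk3 (271 in the highest knockout library against 367 in the lowest wild-type one). Markers of other cells also differed by genotype. Summed CPM of neutrophil markers was 8.32 to 80.1 in wild type and 79.6 to 286 in the knockout, of lymphoid markers 0.109 to 1.33 and 2.11 to 4.31, and of dendritic cell markers 27.5 to 68.0 and 16.8 to 23.0. Summed stromal CPM under MDP was 363 to 390 in the knockout and 92.3 to 116 in wild type. The stromal medians went the other way, at -1.73 to -0.65 and -0.30 to 0.25 log2. Under MDP 4 of 6 neutrophil markers tested were higher and 1 lower in the knockout, and 3 of 3 dendritic cell markers were lower. Their part was not tested.

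**Figure D4:**
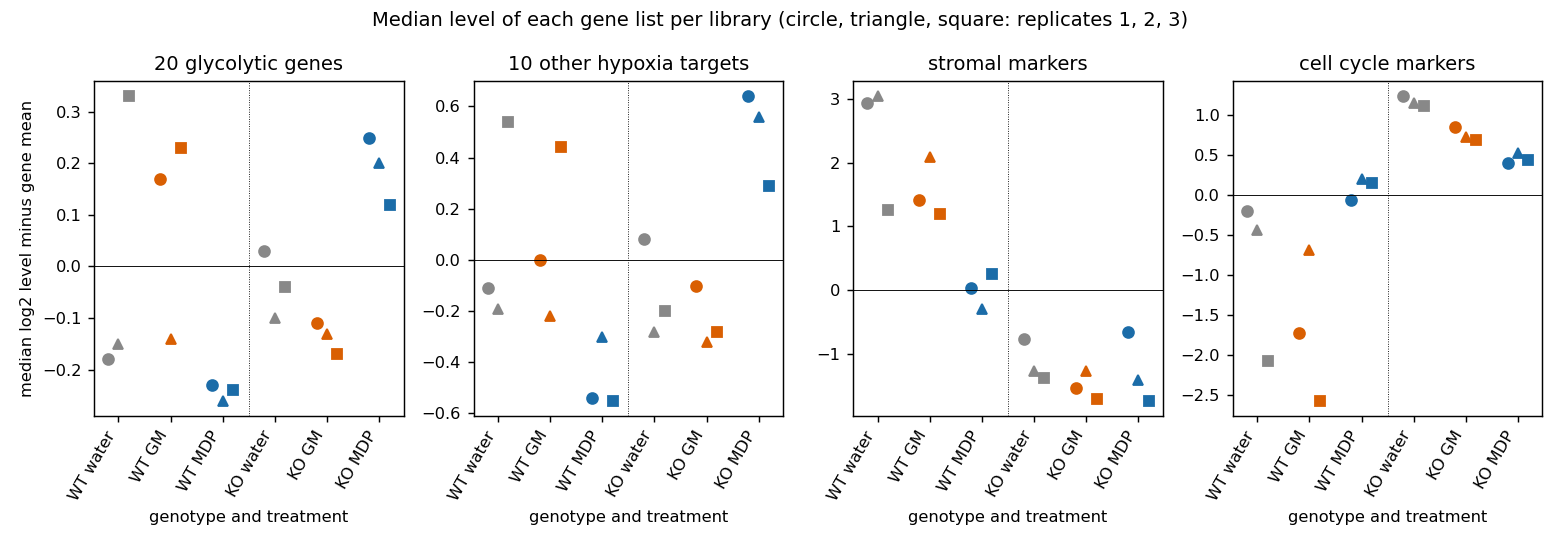
Median over the genes of a list of the log2 level minus each gene's mean over 18 libraries, by library, for the 20 glycolytic genes, the 10 other hypoxia targets, 13 stromal markers and 10 cell cycle markers. The glycolytic medians are lowest in the 3 wild-type libraries with MDP, and wild type with water replicate 3 is above the other wild-type water libraries in both gene groups and below them in both marker lists.

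Further genes of these pathways were read beside the members. Their lists were also chosen with earlier results of these data known, so their counts are no separate test of the members. Of 26 further HIF targets tested in the knockout with MDP, 13 were higher and 0 lower than with water, beside 10.4% higher over all genes. Stc2 (1.44 log2), the mTOR inhibitor gene Ddit4 (1.40), the lipid droplet gene Hilpda (1.07) and the adenylate kinase Ak4 (0.88) were the most changed. With GM against MDP in the knockout 18 of 26 were lower, beside 9.33% of all genes. Under MDP 15 of 27 were higher and 4 lower in knockout than in wild type, beside 23.7% higher and 23.3% lower over all genes, with Stc2 at 4.26 log2. Stc2 was too low to be tested for MDP against water in wild type. It passed the filter here through the knockout libraries, so its fold change rests on a wild-type level near the floor. In wild type with MDP 1 of 26, Bhlhe40 (1.01 log2), was higher than with water, and 2 were lower, the collagen-modifying genes Loxl2 (-3.01 log2) and Plod2 (-2.44), where 9.14% of all genes were called. Without water replicate 3 these 3 had values of 1.01, -3.31 and -2.80 log2, and 7 of 27 were higher and 9 lower, where 37.6% of all genes were called.

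Calls in the rest of glucose metabolism were split in the knockout with MDP. Of 24 further glycolysis and pyruvate genes, 4 were higher and 3 lower, beside 10.4% higher and 10.5% lower over all genes, with the lactate and pyruvate transporter Slc16a7 at -0.66 log2, Eno1b at 0.60 and phosphoglucomutase Pgm1 at 0.59. Eno1b is a near copy of Eno1 and its reads are uncertain. Among 8 pentose phosphate genes, GM raised 4 in the knockout, Pgd by 0.39 log2, Taldo1 by 0.32, and Tkt and H6pd by 0.18 each, where 4.15% of all genes were higher. MDP raised 3 of the 8, where 10.4% were higher.

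Of 15 genes of the HIF system besides Hif1a, 1 was higher and 1 lower with MDP in wild type and likewise in the knockout, where 9.14% and 20.9% of all genes were called. Under MDP 5 were higher and 5 lower in the knockout than in wild type, where 46.9% of all genes were called. Vhl, which captures hydroxylated HIF alpha subunits, read 43.8, 43.0 and 40.1 CPM in wild type with water and 88.1, 88.2 and 82.9 CPM with MDP (log2 fold change 1.03, adjusted p = 0.0025). In the knockout it rose by 0.30 log2 with MDP (adjusted p = 0.0013), from 38.4 to 42.1 CPM with water to 46.7 to 55.2 CPM. Siah2, a ligase for prolyl hydroxylases, was lower with MDP in wild type (-0.85 log2, adjusted p = 0.04). Without water replicate 3 the wild-type values were 0.99 log2 for Vhl and -0.65 for Siah2, both called. Of 3 partners and targets of MondoA, the glucose-sensing factor that drives Txnip, Arrdc4 rose with Txnip in the knockout with GM (0.33 log2, adjusted p = 0.00027), where 4.15% of all genes were higher. Summed CPM of this list was 170 to 174 with water and 168 to 174 with GM in the knockout. A part of MondoA in these changes was not tested.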

How the data were processed

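The deposited tables hold, for 18 poly(A) directional mRNA libraries, raw gene counts made by the authors with HISAT2 2.0.5 and featureCounts 1.5.0-p3 on GRCm39, per the submitters' processing notes, and FPKM values deposited by the authors. Strand setting, annotation release and the treatment of multi-mapped reads are not given in the sources used here. Counts were tested with edgeR 4.0.16 (quasi-likelihood, robust, TMM, minimum count 10 in filterByExpr; R 4.3.3) on the libraries of the groups compared, 6 for a pair of groups and 12 for an interaction, because the groups differ in spread. P-values were adjusted by Benjamini-Hochberg over all genes tested, and a gene was called at adjusted p under 0.05. FPKM served only to compare levels between genes. Samples were grouped by their labels. The members and the pathway and marker lists were chosen with earlier results of these data known. Sample values are given for Hif1a, Txnip and, in each comparison, up to 6 called members with the largest change, and non-member genes are named up to 4 per list. Alternatives were a fit of all 18 libraries, RLE scaling, no filter, DESeq2 1.42.0, a replicate block, limma-voom 3.58.1 with a spread for each group, and leaving out each library in turn. Tests were checked on simulated data: the wild-type comparisons with water recovered a smaller share of small changes than the knockout ones, and the fit of all 18 libraries made many false calls in wild type, so its counts there are not comparable. In the knockout that fit recovered a smaller share of small changes than the fit of the compared libraries. The simulation drew genes independently with a common spread for each group, so it did not copy single libraries that shift many genes together. Total counts of 15532973 to 21128507 per library limit precision for genes of few reads such as Adm and P4ha2.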

Additional observations from a re-analysis of the deposited data

Results flagged for a closer look

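The response to a ligand differed between the genotypes, by a test of the difference itself (edgeR interaction), for these genes of the set. For GM, Pfkfb3 responded 1.15 log2 more in wild type than in the knockout (adjusted p = 0.0019). For MDP, the wild-type minus knockout difference was 1.06 for Pfkfb3 (adjusted p = 0.00067) and 0.68 for Hk3 (0.0044). It was negative for P4ha2 at -3.16 (0.0012), Slc2a1 at -1.52 (0.027), Bnip3 at -1.27 (0.01), Ndrg1 at -1.09 (0.0023), Pfkp at -0.91 (0.00037) and Txnip at -0.59 (0.0073). All of these use the wild type with water group, whose replicate 3 stood apart. Without it 3 genes were called for GM and 19 for MDP.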

How the results depend on the processing

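Of the 126 calls of single genes behind the counts, 126 held with RLE scaling, 125 with DESeq2, 124 without the filter, 118 with a replicate block, 116 with limma-voom and 66 in 1 fit of all 18 libraries, and none changed direction. Counts of genes called in the 1 fit of all libraries were 11 (6 in the reported test) for MDP against water and 10 (5) for GM against MDP in wild type, in the knockout 4 (22) for MDP against water, 5 (27) for GM against MDP and 0 (7) for GM against water, 14 (9) and 15 (27) for knockout against wild type with water and with MDP, and 2 (1) for the GM interaction. GM against MDP in wild type gave 8 without the filter, 14 with DESeq2 and 13 with limma-voom, MDP against water in wild type 9 with limma-voom, GM against water in the knockout 12 without the filter, the GM interaction 2 with DESeq2, and the MDP interaction 13 with DESeq2 and 13 with limma-voom. With the replicate number as a block, counts were 4 for MDP against water in wild type, 12 for GM against water in the knockout and 5 for knockout against wild type with water. Deviations of same-numbered libraries had correlations of -0.19, 0.48 and 0.47 for GM against water in wild type (replicates 1, 2 and 3). In the other pairs of groups the correlations were -0.05 to 0.11. The labels do not say whether a number marks a shared culture or batch, and this was not tested. Leaving out 1 library gave, in wild type, 3 to 18 genes for MDP against water, 1 to 21 for GM against MDP and 0 to 1 for GM against water, in the knockout 20 to 24, 25 to 27 and 4 to 12, 3 to 21, 10 to 21 and 27 to 28 for knockout against wild type with water, GM and MDP, and 1 to 3 and 7 to 19 for the GM and MDP interactions. The cause of the moves with the tool, the filter and the block was not tested. Adm, P4ha2 and Ankrd37 had fewest reads, and no dose or culture is recorded.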
